A study of Mus musculus with 8 samples.

Results

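The urea cycle and the enzymes that break down amino acids were followed in the livers of Snd1 knockout (KO) and wild type (WT) mice. A list of 47 genes was read from the bead arrays by gene symbol. A gene was counted as measured when its probe was detected above the negative controls (detection p under 0.05) on at least 4 of the 8 arrays. By this rule 40 of the 47 genes were measured, among 8134 genes in all. Hgd, Sds, Sdsl, Tdh and Gls2 had no probe named for them in the annotation used. Gcat was detected on 3 arrays and Tat on 0.

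Each group held 4 male C57BL/6N mice, 8 to 12 weeks old, and each array held RNA from the left liver lobe of 1 animal. The livers were taken near midday from non-fasted mice. The KO mice carried a germline deletion of the first exon of Snd1, made in embryonic stem cells of another mouse strain with loxP sites and a Cre that is active throughout the body, and were then backcrossed to C57BL/6N. All cells of the KO mice therefore carried the deletion, and no allele or agent beyond it was named for either group. The study's methods describe WT and KO animals as littermates from heterozygous parents. Snd1 encodes an RNA-binding protein with a Tudor domain and nuclease-like domains, and the comparison asked which liver transcripts differ when it is missing.

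Hepatocytes dispose of the nitrogen of amino acids. Aminotransferases collect it in glutamate and aspartate, and the urea cycle, which runs partly in the mitochondrion and partly in the cytosol, turns ammonia and aspartate nitrogen into urea. The carbon skeletons are degraded by a separate pathway for each amino acid, and most of these enzymes are more abundant in liver than in other organs. Methionine breakdown has a role of its own, since its intermediate S-adenosylmethionine donates methyl groups.

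Snd1 was low on the array of every KO animal. Its probe read 6.79, 6.76, 6.75 and 6.86 on the WT arrays and 4.24, 4.20, 4.22 and 4.15 on the KO arrays, as log2 of the background-corrected and quantile-normalized intensity. It was detected on all 4 WT arrays and on 0 KO arrays, and its level in KO was lower by at least 4.90-fold (limma adjusted p = 3.03e-07). The bound sets the WT mean against the lowest detected signal of each KO array. The sources used here do not say which exon the probe reads.

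Before normalization 10684 to 12134 probes were detected per array, and the mean intensity was 215 on KO 1 and 223 on KO 4 against 262 to 290 on the other 6 arrays. Normalized arrays correlated with each other at 0.957 to 0.993 over the genes tested. None of the sources names the slide of an array, so slide was not tested as a batch. None of the 7 measured hepatocyte markers was called, and none had an unadjusted p under 0.05. These markers, Ttr, Apoa1, Hnf4a and Trf among them, had log2 fold changes of -0.08 to 0.16. Their summed normalized intensity was 83610 to 88600 in WT and 83840 to 88000 in KO. That sum comes mostly from Ttr, Apoa1, Serpina1c, Fga and Trf, whose group means of 13.84 to 14.24 lie near the top of the scale. Quantile normalization gives probes of the same rank the same value on every array. The sum could therefore hardly differ between arrays and does not measure hepatocyte content. The Alb probe was detected on 3 WT and 4 KO arrays. In whole liver fewer cells of a type and less RNA per cell cannot be told apart, and array intensities of different probes were not compared with each other.

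Of the 40 measured genes 2 rose in KO livers and 0 fell at an adjusted p under 0.05 (limma, Benjamini-Hochberg over all 8134 genes). They were Ass1, argininosuccinate synthase of the urea cycle, and Agxt, the peroxisomal alanine-glyoxylate aminotransferase. Among all genes tested 1.18% were called higher and 1.36% lower. All 4 KO values lay above the range of the 4 WT values for 6 of the 40 genes (Ass1, Agxt, Ahcy, Hpd, Aldh4a1 and Mat1a) and below it for 0. Among all genes these shares were 5.37% above and 5.38% below. The log2 fold change was above 0 for 33 of the 40 genes, or 82.5%, against 49.7% of all genes. The median log2 fold change was 0.24 over the 40 genes and 0.00 over all genes. An unadjusted p under 0.05 was reached by 14 of the 40 genes, of which Bhmt and Kmo lay below 0, and by 1417 of all genes. Arrays were also scaled by their median in place of quantile normalization, which moved the median of all genes to -0.05. With this scaling 26 of the 40 genes lay above 0, the median was 0.07 and 0 were called. Of its 97 calls over all genes 14.4% were higher in KO, against 46.4% of 207. The scaling used the median of all 25697 probes, of which 10684 to 12134 were detected per array. On each array the middle probe was therefore an undetected one. Over the 8134 genes tested, the median log2 fold change was then -0.05, as given above. What moved it was not tested. The genes share arrays and are not independent of each other, so the counts above are descriptions. The study's supplement tabulates Cps1, Ass1 and Agxt among genes altered in KO livers both on these arrays and in its mRNA sequencing. It gives all 3 as higher in KO by either method. Both calls here, and the values of Cps1, come from the same arrays and are not evidence independent of its array result. The row taken as Agxt is printed as Agmt in the text at hand, with array values close to those of Agxt here. Only the alphabetical start of that table, down to symbols beginning with Hsd, was at hand. In that part no row names Ahcy, Aldh4a1, Asl, Bhmt, Cbs, Got1 or Hpd. Its later rows may hold further genes described here. Without Cps1, Ass1 and Agxt 30 of 37 were above 0, the median was 0.20 and 0 were called. An unadjusted p under 0.05 was reached by 11 of the 37.

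**Figure D1:**
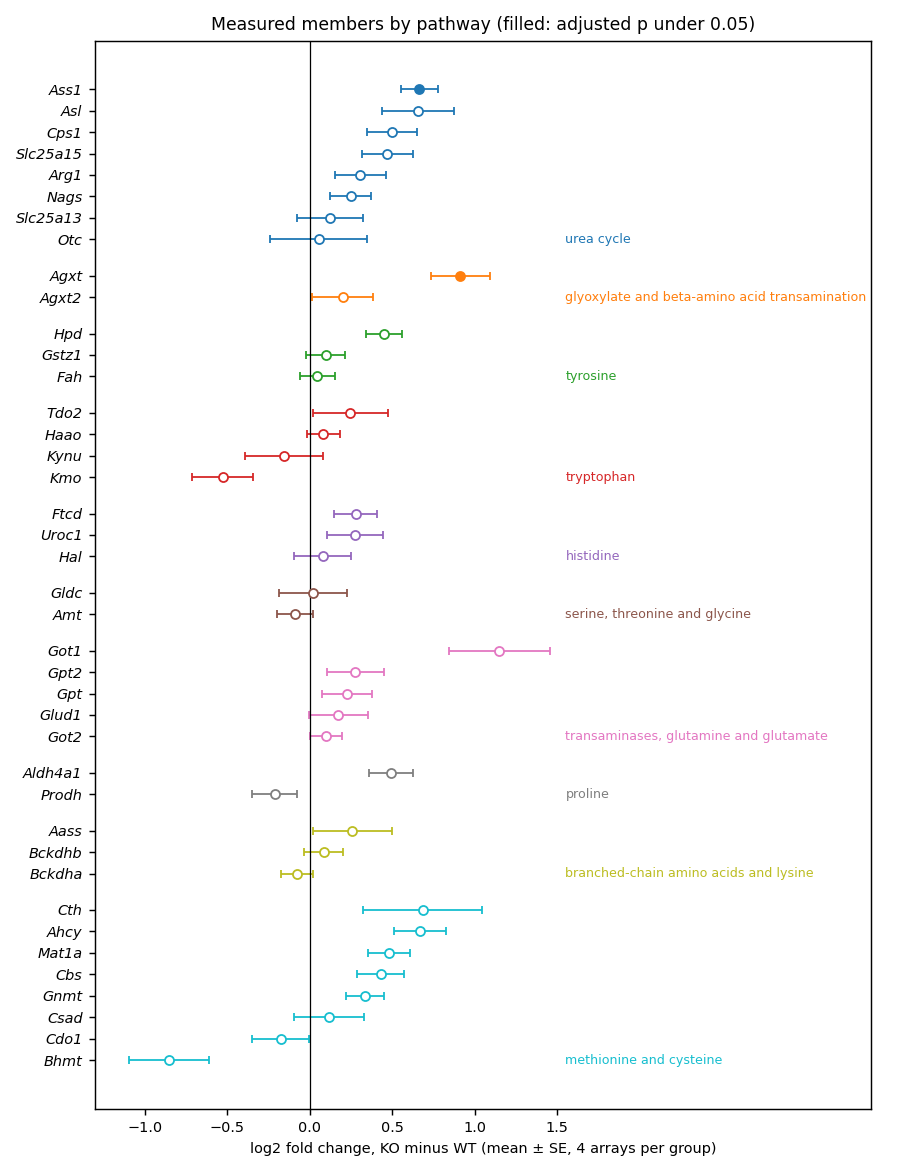
Log2 fold change (KO minus WT, x axis) of each of the 40 measured genes, grouped by pathway, with bars for the standard error of the limma fit on 4 arrays per group. Filled points, Ass1 and Agxt, had an adjusted p under 0.05, and 33 of the 40 points lie to the right of 0.

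**Figure D2:**
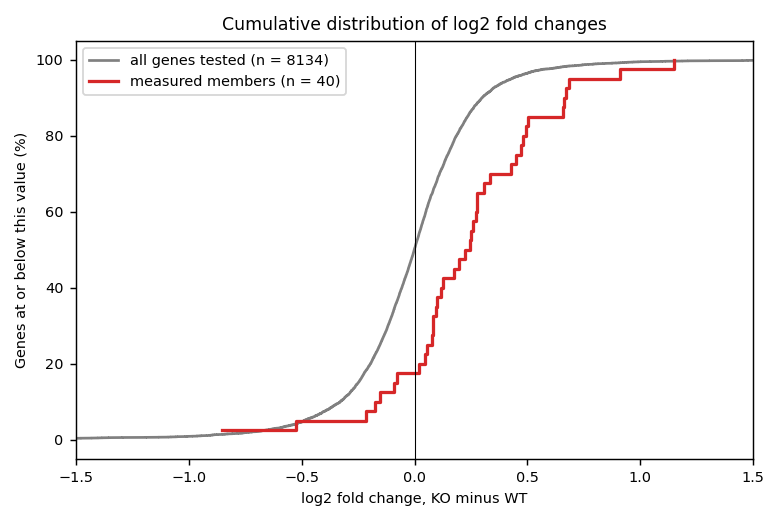
Cumulative share of genes (y axis, percent) at or below each log2 fold change (KO minus WT, x axis, drawn from -1.5 to 1.5) for the 40 measured genes and for all 8134 genes tested. The curve of the 40 genes lies to the right, with a median of 0.24 against 0.00.

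Promoter sequences of 8 genes are shown for context. These genes were chosen after their values were seen, and only Ass1 and Agxt among them were called. Mat1a and Cps1 had no window in the table used. RefSeq promoter windows (assembly GRCm38.p6) matched 35 of the 47 genes. The last 100 bases before the annotated transcription start are printed 5′ to 3′ on the gene's strand, with capitals for any of 6 short motifs on either strand. The motifs were ACGTG (the core of E-boxes and hypoxia elements), TGACG (found in cAMP response elements), AGGTCA (a hexamer bound by many nuclear receptors), the CCAAT box, TATAAA (the TATA box) and GGGCGG (the GC box). Matches of the motifs ACGTG or TGACG can overlap each other. Ass1 lies at chr2:31470170-31470269 (plus strand), Agxt at chr1:93135140-93135239 (plus), Ahcy at chr2:155074498-155074597 (minus), Hpd at chr5:123182724-123182823 (minus), Aldh4a1 at chr4:139622794-139622893 (plus), Got1 at chr19:43524606-43524705 (minus), Bhmt at chr13:93637759-93637858 (minus) and Kmo at chr1:175632093-175632192 (plus).
Ass1: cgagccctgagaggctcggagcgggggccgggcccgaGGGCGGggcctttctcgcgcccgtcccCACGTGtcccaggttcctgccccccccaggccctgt
Agxt: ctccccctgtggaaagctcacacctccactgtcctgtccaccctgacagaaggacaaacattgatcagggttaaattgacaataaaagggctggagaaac
Ahcy: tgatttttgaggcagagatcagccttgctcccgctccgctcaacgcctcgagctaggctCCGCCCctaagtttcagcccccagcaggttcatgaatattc
Hpd: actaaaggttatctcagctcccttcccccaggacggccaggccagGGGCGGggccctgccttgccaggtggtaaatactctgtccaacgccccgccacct
Aldh4a1: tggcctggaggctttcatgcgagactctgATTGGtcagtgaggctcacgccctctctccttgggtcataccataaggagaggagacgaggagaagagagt
Got1: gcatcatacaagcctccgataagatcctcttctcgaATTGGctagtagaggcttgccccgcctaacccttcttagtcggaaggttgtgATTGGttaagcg
Bhmt: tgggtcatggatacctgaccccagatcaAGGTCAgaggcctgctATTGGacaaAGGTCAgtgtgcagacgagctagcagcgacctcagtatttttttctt
Kmo: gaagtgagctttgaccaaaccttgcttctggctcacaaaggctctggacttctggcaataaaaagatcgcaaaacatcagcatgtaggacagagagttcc

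No motif is shared by all of these 8 stretches, and those of Agxt and Kmo hold none of the 6. The Ass1 stretch has a GC box (GGGCGG) and the palindrome formed by ACGTG on both strands, and the Bhmt stretch has AGGTCA at 2 places with a CCAAT box between them. Over the full 250 upstream bases, AGGTCA was present in 35% of the 40 windows of the listed genes and in 14% of all 32851 RefSeq windows. The CCAAT box was present in 47.5% of the listed genes' windows and 33.8% of all windows, and GGGCGG in 42.5% and 32.7%. For TATAAA the shares were 17.5% and 12.4%, for ACGTG 17.5% and 16.6%, and for TGACG 12.5% and 17.8%. A match is only the presence of these letters, no factor's binding was measured, and these shares were not tested.

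All 8 genes of the urea cycle group were measured, all 8 log2 fold changes were above 0, and the median was 0.39. Of these 8 genes 1 was called. The range ran from 0.05 (Otc) to 0.66 (Ass1). The group holds the 5 enzymes of the cycle itself, the activator-making enzyme Nags and the mitochondrial carriers Slc25a15 (ornithine) and Slc25a13 (aspartate and glutamate).

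Ass1, which joins citrulline to aspartate, read 12.64, 12.34, 12.35 and 12.41 on the WT arrays and 13.24, 12.997, 13.07 and 13.10 on the KO arrays. All KO arrays lay above all WT arrays, and KO 1, the dimmest array before normalization, was the highest. The log2 fold change was 0.66 ± 0.11 (SE, 4 arrays per group; 95% interval 0.42 to 0.91), or 1.58-fold (limma adjusted p = 0.0182). The call ended without WT 2, WT 3, WT 4 or KO 3, where the adjusted p was 0.0598 to 0.0745 and the log2 fold change 0.62 to 0.67. It also ended with median scaling (0.47, adjusted p = 0.273), and the range of the adjusted p over all 19 alternatives was 4.17e-04 to 0.273.

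Cps1, the mitochondrial enzyme that commits ammonia to the cycle, and Asl, which releases arginine, are described next to Ass1 although they were chosen after their values were seen. The brighter of the 2 Cps1 probes read 13.29, 12.93, 12.84 and 12.86 in WT and 13.21, 13.35, 13.64 and 13.72 in KO. KO 1 lay below WT 1, so the groups overlapped, and the log2 fold change of 0.50 ± 0.15 SE did not pass (limma adjusted p = 0.119).

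The other Cps1 probe read 12.72, 12.40, 12.23 and 12.12 in WT and 12.88, 13.17, 13.29 and 13.44 in KO. The array values that the study's supplement tabulates for Cps1 lie nearer to these than to those of the brighter probe. On the dimmer probe all KO arrays lay above all WT arrays. In a limma fit of every kept probe on its own, its log2 fold change was 0.83 ± 0.16 SE (adjusted p = 0.0270 over 10945 probes). That fit was added after the data were seen, and in it Ass1, Agxt and Cps1 were the 3 listed genes with a called probe.

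Asl read 9.91, 9.34, 9.24 and 9.64 in WT and 9.90, 9.79, 10.36 and 10.70 in KO. WT 1 stood as high as KO 1 and above KO 2, and the log2 fold change of 0.66 ± 0.22 SE did not pass (limma adjusted p = 0.149). The other Asl probe gave 0.62.

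The remaining genes of the group did not pass. Slc25a15 had a log2 fold change of 0.47 ± 0.16 SE (limma adjusted p = 0.149) and Arg1, which cleaves arginine into urea and ornithine, 0.31. Nags was at 0.25 and Slc25a13 at 0.13. Otc, which forms citrulline, was at 0.05 with a 95% interval of -0.60 to 0.70. Its KO arrays were far apart, at 5.17, 5.92, 6.55 and 6.77, against 5.84 to 6.24 in WT, so KO 1 lay below and KO 3 and KO 4 above all WT arrays.

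Agxt detoxifies glyoxylate in the peroxisome by transferring the amino group of alanine. It read 10.25, 10.10, 10.06 and 9.91 on the WT arrays and 10.50, 10.97, 11.44 and 11.05 on the KO arrays. All KO arrays lay above all WT arrays, and KO 1 lay nearest to WT. The log2 fold change was 0.91 ± 0.18 (SE, 4 arrays per group; 95% interval 0.51 to 1.31), or 1.88-fold (limma adjusted p = 0.0298). Leaving out any of WT 2, WT 3, WT 4, KO 2, KO 3 and KO 4 ended the call (adjusted p = 0.0592 to 0.0994, log2 fold change 0.77 to 0.92), as did median scaling (0.74, adjusted p = 0.275) and testing all 16593 genes without the detection filter (adjusted p = 0.0761). With the replicate number as a block the Agxt call ended too (adjusted p = 0.0688). The range of its adjusted p over all alternatives was 1.25e-04 to 0.275. The mitochondrial enzyme Agxt2 was at 0.20 ± 0.18 SE and did not pass.

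**Figure D3:**
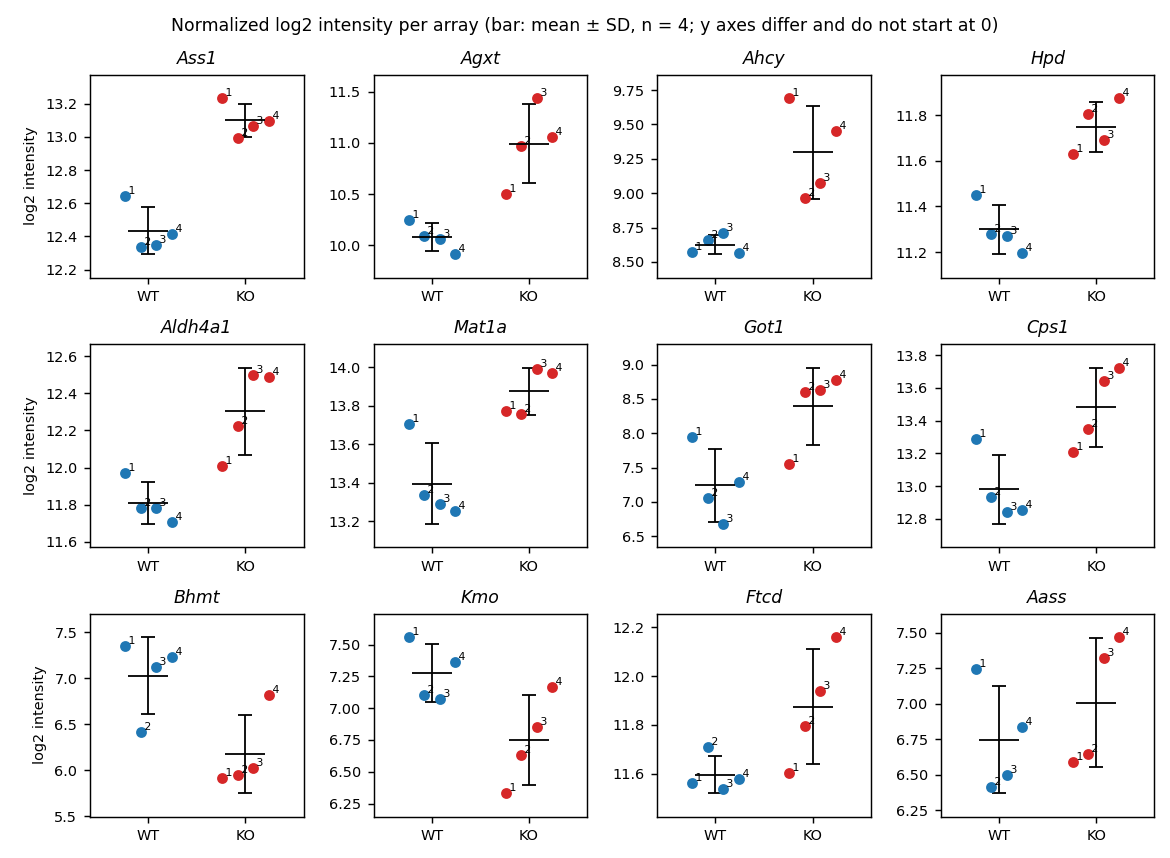
Normalized log2 intensity (y axis, its range set for each gene) of 12 genes on each WT array (blue) and KO array (red), with the replicate number beside each point and bars for the mean ± SD of 4 arrays. The groups do not overlap for Ass1, Agxt, Ahcy, Hpd, Aldh4a1 and Mat1a, and they overlap for the other 6 genes.

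Tyrosine is degraded by Tat, Hpd, Hgd, Gstz1 and Fah in this order, and Hpd, Gstz1 and Fah were measured. None of these 3 genes was called. Hpd, 4-hydroxyphenylpyruvate dioxygenase, read 11.45, 11.28, 11.27 and 11.20 in WT and 11.63, 11.80, 11.69 and 11.87 in KO. The groups did not overlap, and the log2 fold change of 0.45 ± 0.11 SE narrowly missed the threshold (limma adjusted p = 0.0582). It was called with a normexp offset of 50, with the authors' processed values, with array weights, when the background was not corrected, without KO 1 and without WT 1 and KO 1 (range of the adjusted p over all alternatives 0.00395 to 0.701). Gstz1 and Fah, the enzymes at the end of the pathway, were at 0.10 and 0.05, and with median scaling both were below 0 (-0.12 for each).

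Tryptophan is opened by Tdo2 and then passes through Kmo, Kynu and Haao of the kynurenine pathway. All 4 genes were measured, 2 lay above 0 and 2 below, and none was called. Kmo, kynurenine 3-monooxygenase, read 7.56, 7.10, 7.07 and 7.36 in WT and 6.33, 6.64, 6.86 and 7.17 in KO. KO 1, KO 2 and KO 3 lay below every WT array and KO 4 lay within their range, so the log2 fold change of -0.53 ± 0.18 SE did not pass (limma adjusted p = 0.168). Kynu was at -0.15, Haao at 0.08 and Tdo2 at 0.25. The sign of Kynu depended on KO 1, which read 9.16 against 9.85 to 10.43 in WT and 9.92 to 10.37 on the other KO arrays, and the value without KO 1 was 0.08. Haao was at -0.11 with median scaling.

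Histidine is converted to glutamate by Hal, Uroc1 and Ftcd, among other enzymes, and no gene of these 3 was called. Ftcd, formimidoyltransferase cyclodeaminase, read 11.56, 11.71, 11.54 and 11.58 in WT and 11.61, 11.80, 11.94 and 12.16 in KO. KO 2, KO 3 and KO 4 lay above all WT arrays and KO 1 lay among them, and the log2 fold change was 0.28 ± 0.13 SE (limma adjusted p = 0.303). Uroc1 was at 0.27 and Hal at 0.08 (-0.09 with median scaling). For both, KO 1 was below all WT arrays, at 10.89 and 10.48.

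Of the serine, threonine and glycine genes only Gldc and Amt, the P and T proteins of the glycine cleavage system, were measured. Neither was called. Amt read 4.77, 4.82, 4.69 and 4.65 in WT and 4.64, 4.56, 4.86 and 4.53 in KO, with a log2 fold change of -0.09 ± 0.11 SE (limma adjusted p = 0.728). Its values lay near background, and the KO arrays fell on both sides of the WT range. Gldc was at 0.02 ± 0.21 SE and changed sign under 5 of the 19 alternatives.

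Among the aminotransferases and glutamate enzymes 5 of 6 genes were measured, all 5 lay above 0 (median 0.23), though Got2 lay at -0.09 with median scaling, and none was called. Got1, the cytosolic aspartate aminotransferase, had the highest log2 fold change of the 40 genes. It read 7.95, 7.06, 6.68 and 7.28 in WT and 7.55, 8.61, 8.63 and 8.78 in KO. KO 2, KO 3 and KO 4 lay together above all WT arrays, while KO 1 lay within the WT range and WT 1 was the highest WT array. The log2 fold change was 1.15 ± 0.31 SE, or 2.22-fold, with a 95% interval of 0.47 to 1.83 (limma adjusted p = 0.0802). Without KO 1 it was 1.44 and was called.

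The other genes of this group were nearer to 0. Got2, the mitochondrial counterpart of Got1, was at 0.10 ± 0.10 SE, with an interval of -0.11 to 0.31. Gpt and Gpt2, the cytosolic and mitochondrial alanine aminotransferases, were at 0.23 and 0.28, and Glud1, glutamate dehydrogenase, at 0.17. The other Glud1 probe was at -0.18, so its probes disagreed in direction. Of the 10 listed genes with more than 1 kept probe, 9 had the same direction on all of them and Glud1 did not.

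Proline is degraded by Prodh and Aldh4a1. Aldh4a1, which converts pyrroline-5-carboxylate to glutamate, read 11.97, 11.78, 11.78 and 11.71 in WT and 12.01, 12.22, 12.50 and 12.49 in KO. All KO arrays lay above all WT arrays, with KO 1 only just above WT 1, and the log2 fold change of 0.49 ± 0.13 SE did not pass (limma adjusted p = 0.0852). Prodh lay the other way, at -0.21 ± 0.14 SE, and did not pass either.

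None of the 3 branched-chain and lysine genes was called. Bckdha and Bckdhb, subunits of the branched-chain ketoacid dehydrogenase, were at -0.08 and 0.08 (-0.01 for Bckdhb with median scaling), with intervals of -0.29 to 0.13 and -0.18 to 0.35. Aass, which starts lysine breakdown, read 7.24, 6.41, 6.50 and 6.84 in WT and 6.59, 6.65, 7.32 and 7.47 in KO. The groups overlapped, and the log2 fold change was 0.26 ± 0.24 SE (limma adjusted p = 0.625).

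Methionine and cysteine breakdown held 8 measured genes, 6 above 0 and 2 below, with a median of 0.38 and none called. An unadjusted p under 0.05 was reached by 5 of them (Mat1a, Ahcy, Bhmt, Cbs and Gnmt) and by 1417 of all 8134 genes. Mat1a, which makes S-adenosylmethionine, read 13.70, 13.33, 13.29 and 13.25 in WT and 13.77, 13.76, 13.99 and 13.97 in KO. All KO arrays lay above all WT arrays, with WT 1 close to KO 1 and KO 2, and the log2 fold change of 0.48 ± 0.13 SE did not pass (limma adjusted p = 0.0815).

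Ahcy, which splits S-adenosylhomocysteine, read 8.57, 8.66, 8.71 and 8.57 in WT and 9.69, 8.96, 9.08 and 9.45 in KO. Here KO 1 was the highest array, and the groups did not overlap. The log2 fold change was 0.67 ± 0.16 SE, or 1.59-fold (limma adjusted p = 0.0560). It was called without KO 1, without KO 2 and with array weights, and the range of its adjusted p over all alternatives was 0.00682 to 0.163.

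Bhmt, which remethylates homocysteine with betaine, had the lowest log2 fold change of the 40 genes. It read 7.35, 6.42, 7.12 and 7.23 in WT and 5.92, 5.95, 6.03 and 6.81 in KO. KO 1, KO 2 and KO 3 lay below all WT arrays, and KO 4 lay above WT 2. The log2 fold change was -0.85 ± 0.24 SE (limma adjusted p = 0.102), and without KO 4 it was -1.07 and was called.

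Gnmt, which consumes S-adenosylmethionine, was at 0.34, and Cbs, which condenses homocysteine with serine, at 0.43. Cth, which releases cysteine, was chosen after its values were seen because its KO arrays were far apart. It read 8.62, 8.16, 7.78 and 8.24 in WT and 7.86, 8.54, 9.39 and 9.74 in KO. KO 3 and KO 4 lay above all WT arrays and KO 1 and KO 2 among them, and the log2 fold change of 0.68 ± 0.36 SE did not pass (limma adjusted p = 0.360). Cdo1, which oxidises cysteine, and Csad, which decarboxylates the product on the way to taurine, were at -0.17 and 0.12.

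The 4 KO livers were not alike in these genes. For each array the median over the 40 genes of the difference from the WT mean was 0.00 on KO 1, 0.18 on KO 2, 0.37 on KO 3 and 0.56 on KO 4, and 0.13 on WT 1 against -0.03 to -0.05 on the other WT arrays. Over all genes these medians lay between -0.02 and 0.01. KO 4 lay above the WT range in 30 of the 40 genes and KO 3 in 29, KO 2 in 17 and KO 1 in 9. Among all genes these shares were 33.3%, 29.0%, 27.4% and 29.5%.

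KO 1 was the lowest KO array in 26 of the 40 genes and in 35.5% of all genes, and KO 4 the highest in 23 of the 40 and in 32.1% of all. KO 1 was the highest KO array for 5 of the 40 genes, Ass1, Ahcy, Nags, Bckdha and Cdo1. WT 1 was the highest WT array in 22 of the 40 genes and in 29.6% of all. The SD over the KO arrays exceeded that over the WT arrays in 34 of the 40 genes (85%) and in 70.3% of all genes. The median SD of the 40 genes was 0.31 in KO and 0.15 in WT. For all genes it was 0.216 in KO and 0.146 in WT. KO 1 and KO 4, which stood at the opposite ends, were both dim before normalization, and the part of this in the differences was not tested. Without KO 1 and KO 4 the median over the 40 genes was 0.24 and 4 genes were called (Agxt, Ass1, Got1 and Bhmt), with 284 of all genes called. Without WT 1 and KO 1 it was 0.37 and 10 were called, with 551 of all genes called. Both settings were chosen after the data were seen.

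**Figure D4:**
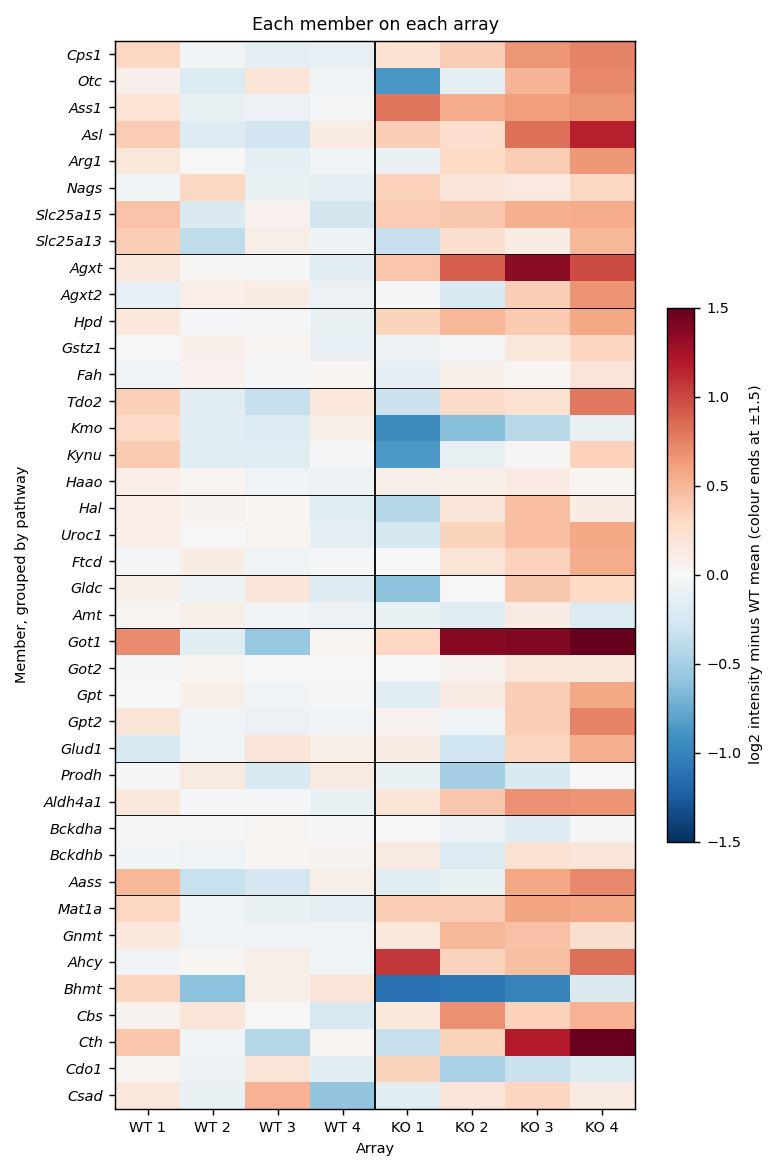
Log2 intensity minus the WT mean (colour, red for higher and blue for lower, ending at ±1.5) of the 40 genes (rows, grouped by pathway) on each of the 8 arrays (columns). KO 3 and KO 4 are red in most rows, with medians of 0.37 and 0.56, while KO 1 is mixed, with a median of 0.00.

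Further genes of amino acid breakdown were read from a list of 66 genes outside the 47. Of the 50 measured, 1 rose and 1 fell, while among all genes tested 1.18% were called higher and 1.36% lower. Kyat3, a kynurenine aminotransferase, had a log2 fold change of 0.80 ± 0.18 SE (limma adjusted p = 0.0447), and Shmt2, the mitochondrial serine hydroxymethyltransferase, of -0.49 ± 0.11 SE (adjusted p = 0.0431). The median of the 50 was 0.04, and 30 of them lay above 0, or 60%, against 49.7% of all genes.

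Of 12 measured regulators of amino acid breakdown 0 were called. The lowest p-values among them belonged to the glucagon receptor Gcgr (-0.37, limma adjusted p = 0.197) and the coactivator Ppargc1a (0.66, adjusted p = 0.234), and 2 of the 12 had an unadjusted p under 0.05. Among 8 measured genes of the ATF4 response to amino acid shortage 0 were called and 1 had an unadjusted p under 0.05. Beside both counts, 1417 of all 8134 genes had an unadjusted p under 0.05. Atf5 was at -0.55 (adjusted p = 0.0644) and Atf4 itself at -0.21 (adjusted p = 0.321).

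The urea cycle is concentrated near the portal vein, so zonation markers were read beside it. The shares called over all genes were 1.18% higher and 1.36% lower. Of 10 measured periportal genes 5 lay above 0 and 5 below, and of 10 pericentral genes 4 above and 6 below. In each list 4 of the 10 had an unadjusted p under 0.05, as did 1417 of all 8134 genes. Of 10 periportal genes 1 rose, the hydroxysteroid dehydrogenase Hsd17b6 (1.495 ± 0.32 SE, limma adjusted p = 0.0363), and their median was 0.02. Of 10 pericentral genes 2 fell, the transcription factor Tbx3 (-1.496 ± 0.27 SE, adjusted p = 0.0228) and the ammonium transporter Rhbg (-0.88 ± 0.17 SE, adjusted p = 0.0285), and their median was -0.05. Glutamine synthetase Glul, the pericentral enzyme that takes up ammonia left by the urea cycle, was at -0.52 (adjusted p = 0.0780), but its probe was detected on only 1 KO array.

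Markers of other cells that a liver lobe can hold were also measured, and none was called. An unadjusted p under 0.05 was reached by 2 of 6 Kupffer cell, 1 of 6 stellate cell, 2 of 7 endothelial, 1 of 2 cholangiocyte and 1 of 2 neutrophil markers. Over all genes tested it was reached by 1417 of 8134. The summed normalized intensity of 6 Kupffer cell markers was 1526 to 2503 in WT and 1390 to 2020 in KO, with all 6 log2 fold changes below 0. For 6 stellate cell markers it was 2589 to 2813 in WT and 2685 to 3963 in KO, with all 6 above 0, and for 7 endothelial markers 2415 to 2514 and 2487 to 3013. For both of these lists KO 4 was the highest array, as it was for the median of the 40 genes. The stellate cell sum comes mostly from Dcn and Reln, and the endothelial sum mostly from Clec4g. The stellate cell markers Col1a1, Lrat, Pdgfrb and Des were dim, with group means of 4.57 to 5.22. The 3 measured erythroid markers summed to 5368 to 11620 in WT and 4036 to 12070 in KO. Of 7 neutrophil markers 2 were measured, with sums of 86.2 to 199.9 in WT and 39.5 to 125.9 in KO. The only exocrine pancreas marker measured, Cela1, had a log2 fold change of -1.36 (limma adjusted p = 0.0694), and the probes of Cpa1, Prss2, Ctrb1 and Cel were below the filter. The part of these cells in the differences above was not tested.

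**Figure D5:**
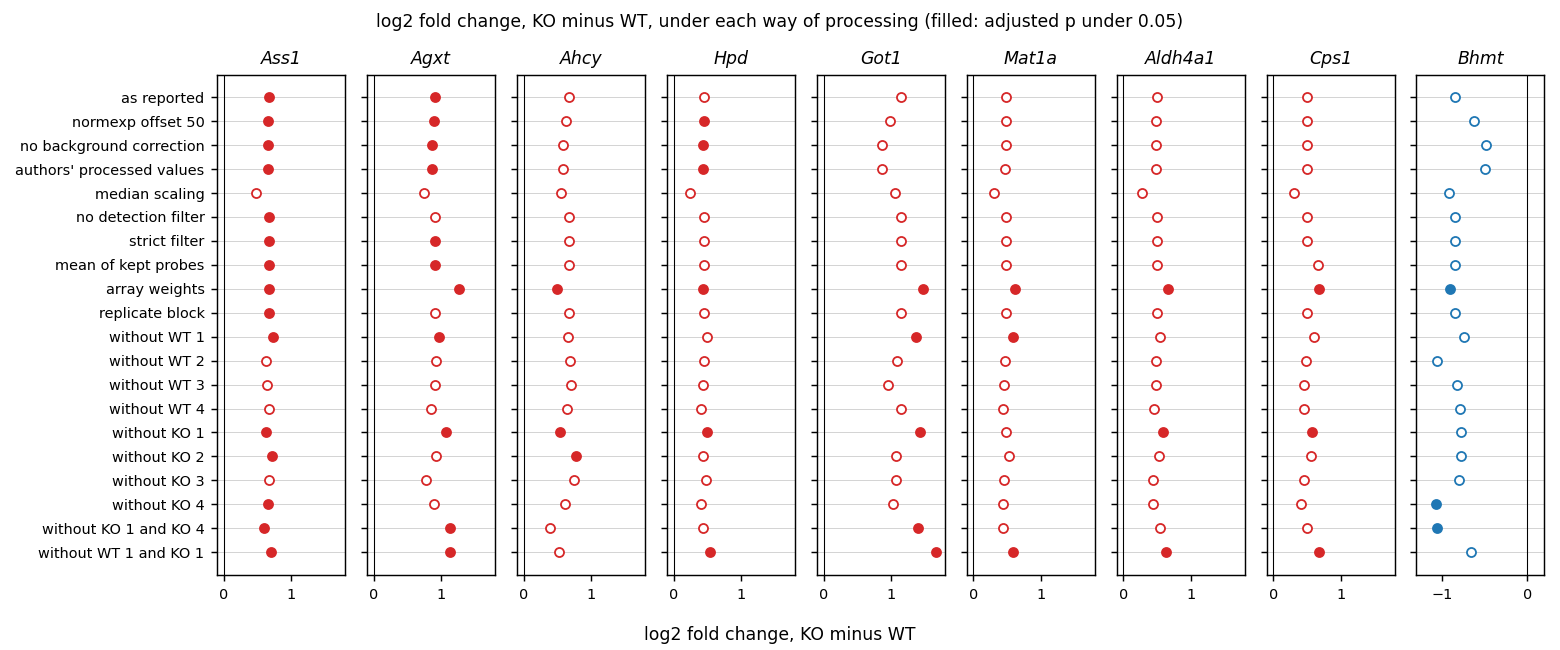
Log2 fold change (KO minus WT, x axis) of 9 genes under the reported processing and each of the 19 alternatives (y axis), with filled points where the adjusted p was under 0.05. Every point of the 8 genes higher in KO stays right of 0 and every point of Bhmt left of it, while the calls come and go with the arrays used.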

How the data were processed

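Liver RNA of 4 WT and 4 KO mice was hybridised to MouseRef-8 v2.0 bead arrays of Illumina. The sample titles gave the groups and replicate numbers, and 0 columns lacked a sample. The authors deposited a table of bead-averaged intensity that was not normalized, on a linear scale, with a detection p-value per probe and array, and a table of processed intensity whose array medians were 92.8 to 92.9. The deposited detection p-value ranks a probe against the array's own negative controls. The scanner software and the form of the authors' normalization were not given in the sources used here, and their test was a comparison of 2 groups in Chipster.

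In R 4.3.3 with limma 3.58.1 the unprocessed intensity was corrected with normexp (offset 16, with the negative controls' moments worked out from detection p-values), taken to log2 and quantile-normalized. The offset shrinks changes of dim probes, and quantile normalization hides a change of total RNA. Of 25697 probes 23978 had 1 symbol in the platform annotation and 1719 had none. Named probes detected (p under 0.05) on at least 4 of 8 arrays were kept (10945), the brightest for each gene, which gave 8134 genes. Genes detected in only 1 group can pass this filter. The 2 groups were tested against each other with limma's lmFit and eBayes, 2-sided and without a covariate, with Benjamini-Hochberg adjustment over all 8134 genes. Close paralogs can share probe signal. The number of arrays, 4 a group, limits the precision.

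The 47 genes and all other lists were chosen with earlier results of these data known, so lists are described by counts and medians. Values on every array are given for Snd1, for called genes, for genes whose groups do not overlap and for the gene of each pathway with the largest change. Alternatives were a normexp offset of 50, no background correction, the authors' processed values, median scaling, no or a strict detection filter, the mean of a gene's probes, array weights, the replicate number as a block and leaving out single arrays. Promoter windows came from RefSeq (GRCm38.p6) and were searched with Python 3.11.15. No probe sequence was used, and Tat and Gcat were left out as below the filter.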

Additional observations from a re-analysis of the deposited data

Results flagged for a closer look

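Within a group of 4 arrays, 4 single values stood far from the other 3 (Dixon's criterion at 95%), out of 80 groups looked at over the 40 genes, and chance alone flags about 1 group in 20. Got1, the cytosolic aspartate aminotransferase, read 7.55 on KO 1 against 8.61 to 8.78 on the other KO arrays, inside the WT range. Gpt2, the mitochondrial alanine aminotransferase, read 10.76 on WT 1 against 10.48 to 10.52 on the other WT arrays. Gnmt, glycine N-methyltransferase, read 13.75 on WT 1 and 13.53 on the other 3 WT arrays, where quantile normalization gives probes of equal rank the same value. Bhmt, betaine-homocysteine methyltransferase, read 6.813 on KO 4 against 5.92 to 6.03 on the other KO arrays, which brought KO 4 into the WT range. Without WT 1 the log2 fold changes of Gpt2 and Gnmt remained above 0, and neither was called with any single array left out.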

How the results depend on the processing

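Of the 40 log2 fold changes, 22 above 0 and 5 below 0 kept their sign under all 19 alternatives, and the other 13 changed it under at least 1. The median over the 40 genes stayed above 0, at 0.07 with median scaling and 0.11 to 0.35 with 1 array left out. The 2 called genes became 0 with median scaling, 1 without the detection filter (Ass1) and 22 with array weights (20 higher, 2 lower), where KO 3 had a weight of 4.80 and KO 1 of 0.256. Over all genes the 207 calls became 97, 96 and 2190. Without the detection filter 16593 genes were tested in place of 8134, and for the other settings the cause was not tested. With 1 array left out 0 to 9 of the 40 genes were called (0 to 9 higher, 0 to 1 lower), and 41 to 517 of all genes. The count was 0 without WT 2, WT 3, WT 4 or KO 3, 5 without WT 1 and 9 without KO 1. In the settings added after the data were seen it was 4 (3 higher, 1 lower) without KO 1 and KO 4, and 10 (10 higher) without WT 1 and KO 1, with 284 and 551 of all genes called.

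Same-numbered WT and KO arrays did not deviate together (correlations of -0.0877 to 0.117 across genes). The sources used here do not say how the replicates were numbered. These correlations cannot exclude that same-numbered animals were littermates or were handled together, so pairing is unknown. With the replicate block 1 of the 40 genes (Ass1, higher) and 92 of all genes were called, and Agxt was not (adjusted p = 0.0688).

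These signs changed. With median scaling, Gstz1 was at -0.12, Fah at -0.12, Haao at -0.105, Hal at -0.0912, Gldc at -0.13, Got2 at -0.0943 and Bckdhb at -0.0113. With array weights, Kynu was at 0.0542 and Amt at 0.0644, and with the mean of kept probes Glud1 was at -0.0045. With 1 array left out, Otc ranged from -0.17 to 0.367, Slc25a13 from -0.00185 to 0.290, Fah from -0.00234 to 0.11, Hal from -0.0433 to 0.245, Gldc from -0.11 to 0.234, Csad from -0.0783 to 0.289 and Kynu from -0.322 to 0.0821. Without WT 1 and KO 1, Kynu was at 0.21. Dim probes such as those of Amt, Tdo2 and Slc25a13 limit what could be seen, because the offset shrinks their changes.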
